A study of Homo sapiens with 8 samples.

Results

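The genes described here make cholesterol from acetyl-CoA, sense it and take up or store it. They were taken by symbol from a list of 27 genes, and were tested where 4 or more of the 8 libraries held 10 or more normalized reads. The symbols matched 29 rows of the table, of which 27 passed, 1 for each symbol, and the other 2, second rows of EBP and NSDHL, held no reads. They are 27 of the 19559 genes tested. The symbols were fixed by name, with earlier results of these data known.

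The libraries came from LY2 cells, an endocrine-resistant derivative of the MCF-7 breast cancer line. One group stably carried shRNA against NCOA1 (shSRC1), the gene of the nuclear receptor coactivator SRC-1, and the other a non-targeting shRNA (shNT), with 4 libraries in each. Both groups were grown with 4-hydroxytamoxifen at 10 nM in charcoal-stripped serum under 500 ng/mL puromycin, then kept 72 h without steroids and given 100 nM of 4-hydroxytamoxifen for 8 h. Both groups therefore carry a hairpin and have tamoxifen, and every difference below is one between hairpins within tamoxifen-treated cells. The labels do not say whether each line is 1 clone or a pool, or whether the libraries came from separate cultures, so p-values measure the spread between these libraries only.

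Cholesterol synthesis starts with the joining of acetyl-CoA units into mevalonate, goes through isoprenoid diphosphates to squalene, and ends with the ring closure and trimming that give cholesterol. Most of its enzymes are transcribed under SREBP-2, the product of SREBF2, which the escort protein SCAP carries to the Golgi for cleavage when sterols are low and which INSIG proteins hold in the endoplasmic reticulum when sterols are high. INSIG1 is itself an SREBP target. In breast cancer cells the pathway also bears on tamoxifen directly, since the sterol isomerase EBP and the reductase DHCR7 form the antiestrogen binding site, which binds tamoxifen and related drugs.

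Reads recovered from the table numbered 58459196 to 67022036 a library, except for shSRC1 replicate 2 with 33771775. The members held between 478 and 15040 reads each in a library. NCOA1 had 1927, 1895, 2215 and 2107 normalized reads in the shSRC1 libraries, against 4381, 4212, 4467 and 4525 in the shNT libraries (a log2 fold change of -1.11 with a limma adjusted p = 2.25e-07). All 8 luminal breast markers on the list were measured, and their summed level was 513845 to 583254 normalized reads in shSRC1 and 340043 to 416533 in shNT libraries. Markers of other cell types had low sums beside the luminal sum, given here with the shSRC1 range before the shNT range. For 6 fibroblast genes (4 tested) the sums were 1418 to 1926 and 1600 to 2094 normalized reads. For 6 leukocyte genes (2 tested) they were 22.7 to 47.5 and 39.1 to 53.8. For 4 endothelial genes (1 tested, PECAM1 at 0 in all libraries) they were 222 to 289 and 231 to 277. They were 7.33 to 14.0 and 6.50 to 16.9 for 4 adipocyte genes (none tested), and 1329 to 1496 and 679 to 871 for 4 hepatocyte genes (2 tested). Single genes reached close to some of these sums. COL1A1 reached 2039 among the fibroblast genes, VWF 281 among the endothelial genes and SERPINA1 1365 among the hepatocyte genes. At those values COL1A1 and SERPINA1 lie within the range of the members' normalized reads. In the luminal sum the highest single gene was KRT8, at up to 235045. The part of the luminal and hepatocyte marker differences in the results below was not tested. In bulk RNA, fewer cells of a type and less RNA per cell cannot be told apart.

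The pathway as a whole did not move in one direction. Of the 27 genes, 2 rose in shSRC1 cells (INSIG1 and PMVK), 2 fell (LRP8 and LSS) and 23 did not pass an adjusted p of 0.05 in limma. Over all genes tested, 23.2% passed, 12.0% higher and 11.2% lower, and the 4 members called are 14.8% of the list. The median log2 fold change of the members was -0.05, against -0.0025 over all genes tested, with 11 members above 0 and 16 below. After a correction for transcript length and GC content, 15 members were above 0 with a median of 0.0078, and over the libraries left out one at a time the median ran from -0.10 without shNT replicate 3 to -0.01 without shNT replicate 4. The median size of a change, sign left aside, was 0.13 on the log2 scale for the members, 0.24 over all genes and 0.17 over the 8873 tested genes with a mean at least that of the lowest member. The ends of the 95% confidence intervals of the 23 other members lay between -0.38, for CYP51A1, and 0.45, for HSD17B7.

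**Figure D1:**
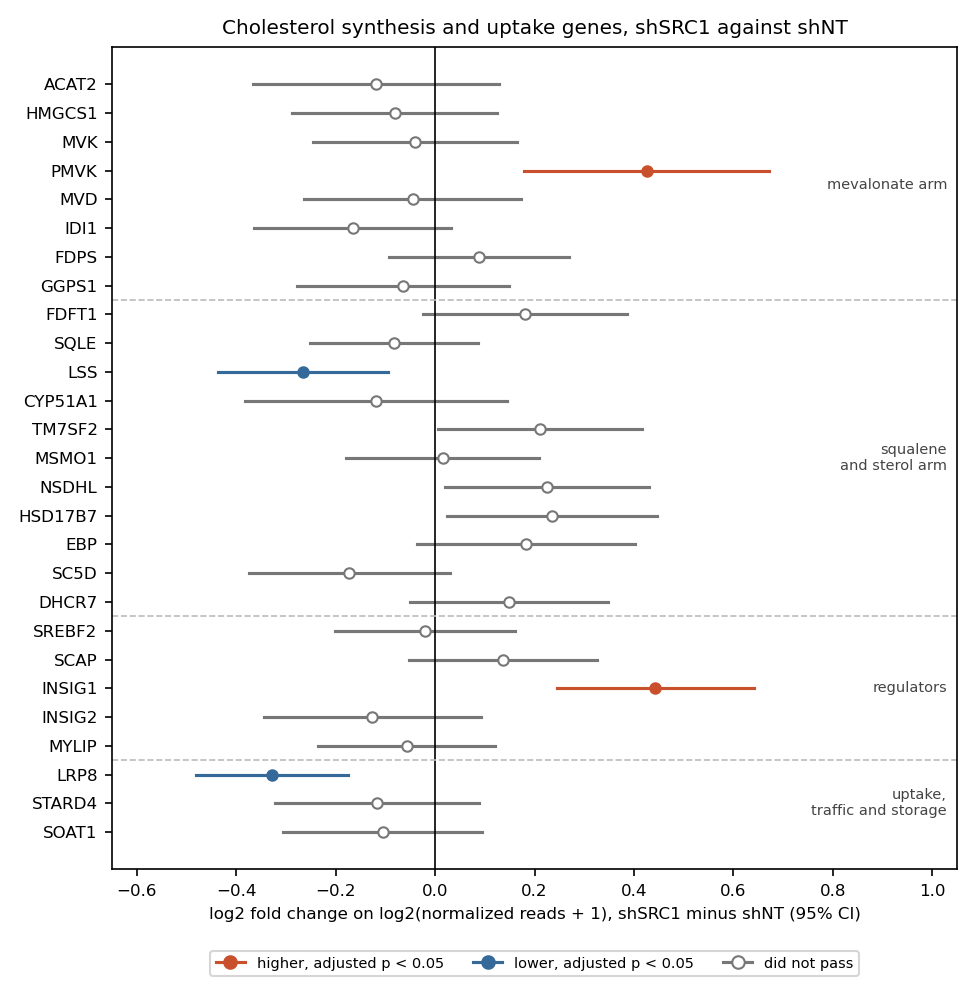
Log2 fold change of each gene on the log2(normalized reads + 1) scale, shSRC1 minus shNT, with its 95% confidence interval from limma, grouped by role down the page. Filled points mark the 4 genes that passed an adjusted p of 0.05, INSIG1 at 0.44, PMVK at 0.43, LSS at -0.27 and LRP8 at -0.33, and the other 23 intervals lie between -0.38 and 0.45.

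The clearest rise was in INSIG1 (ENSG00000186480), which encodes the endoplasmic reticulum anchor that retains the SCAP-SREBP complex. INSIG1 had 4321, 4813, 4560 and 4947 normalized reads in the shSRC1 libraries and 3433, 3572, 2905 and 3857 in the shNT libraries. Every shSRC1 library lay above every shNT library, and the mean was 35.4% higher in shSRC1. On the log2 scale the rise was 0.44 with an SE of 0.09 (95% confidence interval 0.24 to 0.64), with a limma adjusted p of 0.0039. The call was kept in all 20 alternative settings, where the log2 fold change ran from 0.35 to 0.50.

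PMVK (ENSG00000163344) encodes phosphomevalonate kinase, which acts on the product of the mevalonate kinase MVK. PMVK had 3934, 3721, 3539 and 3829 normalized reads in shSRC1 libraries, against 2844, 3206, 2110 and 3169 in shNT libraries. The groups did not overlap, although shNT replicate 3 lay well below the other shNT libraries. The rise was 0.43 on the log2 scale with an SE of 0.12 (95% confidence interval 0.18 to 0.67), with a limma adjusted p of 0.0164, and 0.29 without that library. Without shSRC1 replicate 1, where 17.1% of all genes were called, the call was lost (limma adjusted p = 0.0548, range over its alternatives 0.0030 to 0.0548).

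The largest fall was in LRP8 (ENSG00000157193), a receptor of the low-density lipoprotein receptor family that binds apolipoprotein E and reelin. LRP8 had 4834, 4659, 4864 and 4511 normalized reads in the shSRC1 libraries and 6007, 5880, 5944 and 5847 in the shNT libraries. All shSRC1 values were below all shNT values, and both groups were tight, with coefficients of variation of 3.49% in shSRC1 and 1.19% in shNT. The mean fell by 20.3%, and the log2 fold change of -0.33 had an SE of 0.07 (95% confidence interval -0.48 to -0.18) and a limma adjusted p of 0.0050. The call was kept in all 20 alternative settings.

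LSS (ENSG00000160285) encodes lanosterol synthase, which folds squalene epoxide into the first sterol. LSS had 4690, 4286, 4227 and 3937 normalized reads in shSRC1 libraries and 5423, 5002, 4873 and 5301 in shNT libraries. The groups did not overlap, but the nearest libraries of each lay close together. Its log2 fold change of -0.27 had an SE of 0.08 (95% confidence interval -0.44 to -0.10) and a limma adjusted p of 0.0275. The call was lost in 6 of 20 alternatives, namely with no filter on low values and without shSRC1 replicates 2, 3 or 4 or shNT replicates 1 or 4, with adjusted p-values of 0.0616, 0.0666, 0.0695, 0.0799, 0.0841 and 0.0738 in that order (range over its alternatives 0.0013 to 0.0841). In those 6 alternatives 9.90%, 16.2%, 18.3%, 18.1%, 17.7% and 18.9% of all genes were called.

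**Figure D2:**
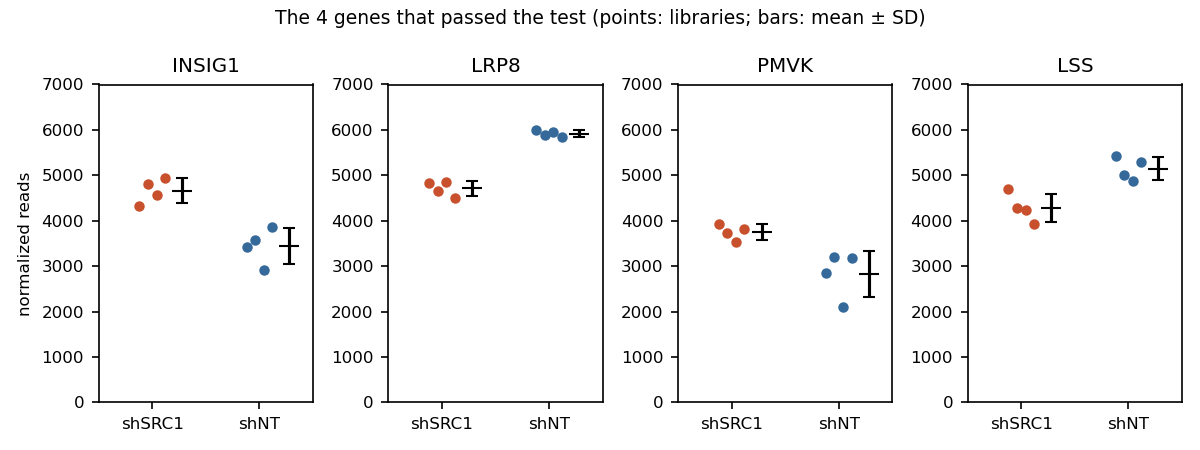
Normalized reads of INSIG1, LRP8, PMVK and LSS in each library (points), with the mean and SD of 4 libraries beside them, shSRC1 left of shNT on axes that start at 0. In each gene the 4 shSRC1 points lie on one side of the 4 shNT points, with the smallest separation in LSS (4690 against 4873 for the nearest libraries).

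The promoters of these 4 genes are shown because genes under SREBP-2 are read through short elements close to the start site. The sequences are the 250 bases before the RefSeq start of each gene on GRCh38.p14, written in the direction of transcription, with capitals on the letters CCAAT (bound by NF-Y), CACGTG (the E-box) and GGGCGG (bound by Sp1) on either strand. Overlapping matches run together as 1 stretch of capitals.
INSIG1 (chr7:155297628-155297877, plus strand): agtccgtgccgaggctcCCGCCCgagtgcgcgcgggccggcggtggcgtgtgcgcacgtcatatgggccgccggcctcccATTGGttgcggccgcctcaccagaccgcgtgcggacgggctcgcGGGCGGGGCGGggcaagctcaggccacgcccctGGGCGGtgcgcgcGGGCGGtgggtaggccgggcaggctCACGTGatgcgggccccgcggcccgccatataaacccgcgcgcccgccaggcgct
LRP8 (chr1:53328071-53328320, minus strand): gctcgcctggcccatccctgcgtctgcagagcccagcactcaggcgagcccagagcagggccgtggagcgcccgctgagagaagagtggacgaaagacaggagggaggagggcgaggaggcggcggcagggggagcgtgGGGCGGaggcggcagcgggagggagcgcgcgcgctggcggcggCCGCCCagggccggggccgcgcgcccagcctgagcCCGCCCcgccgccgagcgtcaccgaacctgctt
PMVK (chr1:154936720-154936969, minus strand): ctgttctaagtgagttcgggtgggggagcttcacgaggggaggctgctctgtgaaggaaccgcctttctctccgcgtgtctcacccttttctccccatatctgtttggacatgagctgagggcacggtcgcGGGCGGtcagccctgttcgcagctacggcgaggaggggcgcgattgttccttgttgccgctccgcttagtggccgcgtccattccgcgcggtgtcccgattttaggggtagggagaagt
LSS (chr21:46228775-46229024, minus strand): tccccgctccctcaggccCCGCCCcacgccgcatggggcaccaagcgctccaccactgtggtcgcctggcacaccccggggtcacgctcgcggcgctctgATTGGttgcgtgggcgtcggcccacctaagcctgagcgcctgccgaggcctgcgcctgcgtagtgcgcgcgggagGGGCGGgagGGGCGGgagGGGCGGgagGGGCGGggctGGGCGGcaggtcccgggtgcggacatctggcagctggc
INSIG1 held 1 CCAAT match, 1 CACGTG match and 5 GGGCGG matches in these bases. The LSS stretch held 1 CCAAT match and 6 GGGCGG matches, LRP8 3 GGGCGG matches and PMVK 1. So the pair that rose and the pair that fell each held 1 gene with CCAAT and 1 without. For 24 of the 27 members a RefSeq window from 250 bases before to 50 after a start was matched by symbol. CCAAT was found in at least 1 window of 19 of these 24 genes, or 79.2%, against 42.7% of the 10952 tested genes with a window. GGGCGG was found in 95.8% of the members and 74.8% of those tested genes, and CACGTG in 16.7% and 12.4%. The letters TCACNCCAC, a strict form of the sterol regulatory element with N for any base, were found in 1.50% of tested genes with a window and, among the members, in SREBF2 only. That stretch of SREBF2, from base -150 to base -101 before its start, is shown with the element and a CCAAT on the other strand in capitals.
SREBF2 (chr22:41832955-41833004, plus strand): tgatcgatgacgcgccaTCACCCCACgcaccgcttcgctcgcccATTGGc
A match describes letters only, and a looser form of the element was not searched.

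In the mevalonate arm, which runs from acetyl-CoA to the isoprenoid diphosphates, PMVK was the only 1 of 8 genes to pass. HMGCS1, the synthase that makes HMG-CoA, had 3825, 4558, 4533 and 4978 normalized reads in shSRC1 and 4370, 5032, 4310 and 5207 in shNT, ranges that largely overlapped. Its log2 fold change was -0.08 (95% confidence interval -0.29 to 0.12). ACAT2, the cytosolic thiolase that starts the pathway, averaged 2439 ± 103 in shSRC1 and 2683 ± 495 in shNT (SD, n = 4 each), and MVK, the mevalonate kinase before PMVK, 2246 ± 106 and 2324 ± 292. ACAT2 was lower in shSRC1 past the threshold only without shNT replicate 3 (log2 fold change -0.25, limma adjusted p = 0.0332, range over its alternatives 0.0332 to 0.814). The decarboxylase MVD and the isomerase IDI1 had log2 fold changes of -0.05 and -0.17. FDPS and GGPS1, which make farnesyl and geranylgeranyl diphosphate, had 0.09 and -0.06. These 7 genes had limma adjusted p-values between 0.205, for IDI1, and 0.784, for MVK.

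Within each library PMVK can be set against MVK, which acts one step earlier. The ratio of PMVK to MVK was 1.67, 1.61, 1.62 and 1.80 in shSRC1 libraries and 1.19, 1.29, 1.11 and 1.25 in shNT libraries. This pair was chosen after its values were seen and was not tested. The shNT library with low PMVK had low MVK too, so its ratio of 1.11 was nearer to those of the other shNT libraries than its PMVK level was.

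In the squalene and sterol arm, LSS was the only 1 of 11 genes to pass, and 7 of the 11 had a fold change above 0. FDFT1, squalene synthase, averaged 9844 ± 325 normalized reads in shSRC1 and 8742 ± 1153 in shNT (SD, n = 4 each), and SQLE, the squalene epoxidase, 12027 ± 657 and 12737 ± 659. Their log2 fold changes were 0.18 and -0.08. SQLE acts directly before LSS, and the ratio of LSS to SQLE was 0.417, 0.344, 0.361 and 0.311 in shSRC1 libraries and 0.425, 0.374, 0.412 and 0.408 in shNT libraries. That ratio overlapped between the groups, unlike LSS itself. The overlap came from shSRC1 replicate 1, and the other shSRC1 ratios lay below every shNT ratio. The longest transcripts of LSS and SQLE have 58.3% and 46.5% GC, and the part of GC content in this ratio was not tested. This pair too was chosen after its values were seen and was not tested.

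After lanosterol, the sterol reductase TM7SF2 had 3699, 3273, 3408 and 3524 normalized reads in shSRC1 and 3225, 3239, 2452 and 3158 in shNT. NSDHL, which removes carbon groups at the fourth ring position, had 2568, 2549, 2520 and 2656 in shSRC1 and 2322, 2385, 1785 and 2370 in shNT. In both genes the groups did not overlap, yet neither passed the test, and NSDHL passed with the replicate block (limma adjusted p = 0.0414, range over its alternatives 0.0414 to 0.255). The log2 fold changes were 0.21 for TM7SF2 (limma adjusted p = 0.122) and 0.23 for NSDHL (limma adjusted p = 0.101), both with an SE of 0.10. HSD17B7, the keto-reductase of the same complex, had 1110, 1272, 1189 and 1263 in shSRC1 against 1083, 1120, 856 and 1062 in shNT, which is 0.24 on the log2 scale with an SE of 0.10 (limma adjusted p = 0.0981). HSD17B7 overlapped between groups by 1 pair of libraries, and passed in 3 of 20 alternatives, the replicate block, the length and GC correction, and both together, in which 32.7%, 29.9% and 32.3% of all genes were called. In all, 6 of the 27 members did not overlap between groups, 4 higher and 2 lower in shSRC1, where 29.0% of all tested genes did not overlap, 16.9% higher and 12.1% lower.

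The remaining enzymes of this arm were the demethylase CYP51A1, the methyl oxidase MSMO1 and the desaturase SC5D, with log2 fold changes of -0.12, 0.02 and -0.17. EBP had 5574, 5259, 5145 and 5237 normalized reads in shSRC1 and 4932, 5289, 3678 and 4962 in shNT, with shNT replicate 2 inside the shSRC1 range. DHCR7, the last reductase, had 14245, 12527, 11984 and 11675 in shSRC1 and 12505, 11642, 9869 and 11507 in shNT, which overlapped too. The log2 fold changes of the pair that forms the tamoxifen-binding site were 0.18 (95% confidence interval -0.04 to 0.40) for EBP and 0.15 (95% confidence interval -0.05 to 0.35) for DHCR7. All libraries had 4-hydroxytamoxifen, so these values hold no comparison with untreated cells.

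**Figure D3:**
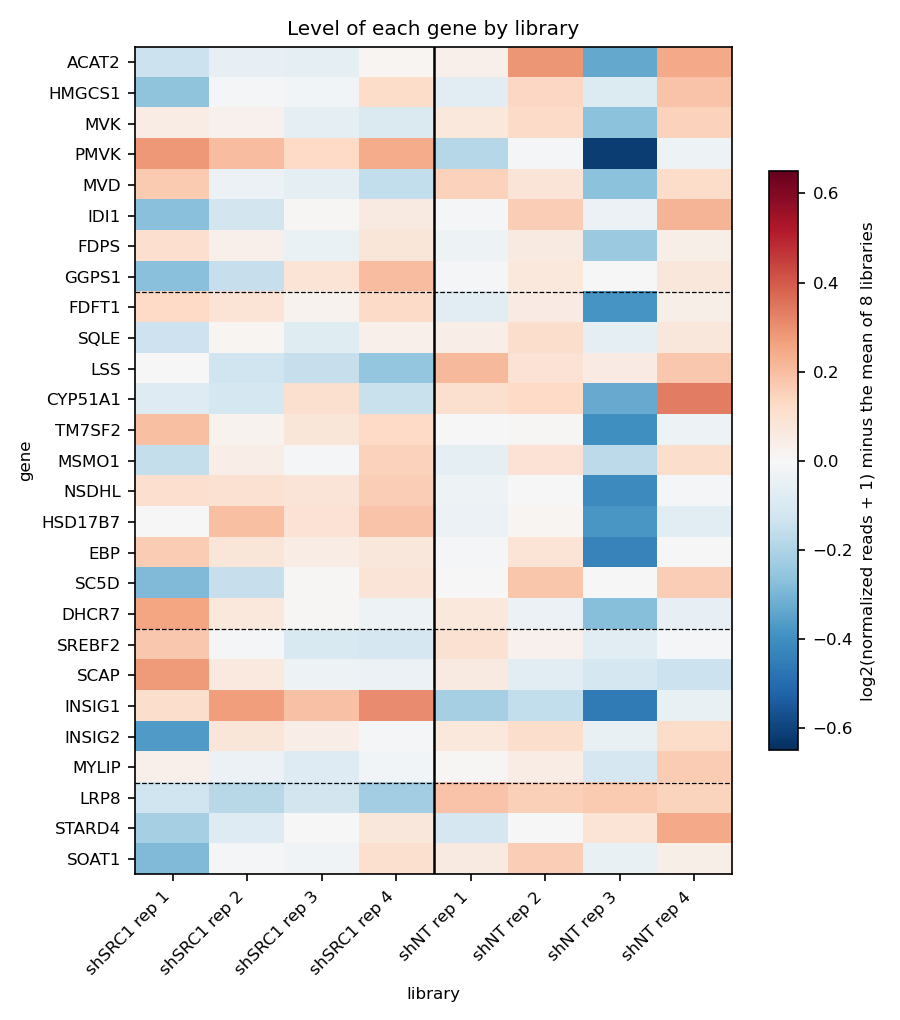
Each cell is a gene's log2(normalized reads + 1) in 1 library minus its mean over the 8 libraries, with shSRC1 libraries left of the black line and shNT libraries right of it, and dashed lines between roles. INSIG1 and PMVK are red in the 4 shSRC1 columns and LRP8 blue, the column of shNT replicate 3 is blue for most genes (median -0.17), and shSRC1 replicate 1 holds both strong reds and strong blues.

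Among the regulators, INSIG1 was the only 1 of 5 genes to pass. SREBF2 had 10511, 9246, 8688 and 8615 normalized reads in shSRC1 and 9955, 9482, 8855 and 9218 in shNT, a log2 fold change of -0.02 (95% confidence interval -0.20 to 0.16). SCAP averaged 4692 ± 498 in shSRC1 and 4258 ± 263 in shNT (SD, n = 4 each), a log2 fold change of 0.14. MYLIP, the ubiquitin ligase that sends lipoprotein receptors, LRP8 among them, to degradation, averaged 1431 ± 48 and 1491 ± 116, a log2 fold change of -0.06. INSIG2, the second INSIG gene, had 981, 1335, 1301 and 1260 in shSRC1 and 1324, 1370, 1221 and 1375 in shNT. Its log2 fold change was -0.13 (95% confidence interval -0.35 to 0.09).

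The INSIG genes were compared within each library, where the scaling between libraries drops out. The log2 ratio of INSIG1 to INSIG2 was 2.14, 1.85, 1.81 and 1.97 in shSRC1 libraries and 1.37, 1.38, 1.25 and 1.49 in shNT libraries. Every shSRC1 ratio was above every shNT ratio, with means of 1.94 ± 0.15 in shSRC1 and 1.37 ± 0.10 in shNT (SD, n = 4 each) and a difference of 0.57. The two-sided exact permutation p was 0.0286, which is the smallest possible with 4 libraries a group. The log2 ratio of SREBF1, the gene of the SREBP that leads fatty acid synthesis, to SREBF2 was 1.05, 1.11, 1.03 and 0.95 in shSRC1 and 0.53, 0.43, 0.50 and 0.54 in shNT, a difference of 0.53 (exact two-sided permutation p = 0.0286). These were the 2 ratios tested, and with Benjamini-Hochberg adjustment over both the p-values stayed at 0.0286. INSIG1 and SREBF1 alone already separated the groups fully, so these p-values add no support apart from those genes' own values. Among single tested genes, 29.0% did not overlap between groups, and no such share was taken over ratios. A trend of a library with GC content does not drop out of such ratios, and neither was recomputed after the length and GC correction. The longest transcripts of INSIG1 and INSIG2 have 46.0% and 35.4% GC, and those of SREBF1 and SREBF2 62.8% and 57.1%. SREBF1 had 21721, 19941, 17705 and 16623 normalized reads in shSRC1 and 14420, 12733, 12565 and 13406 in shNT. The 50 tested genes around SREBF1 on chromosome 17 had a median log2 fold change of 0.33, beside 0.51 for SREBF1 itself, and the part of its neighbourhood in this ratio was not tested.

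**Figure D4:**
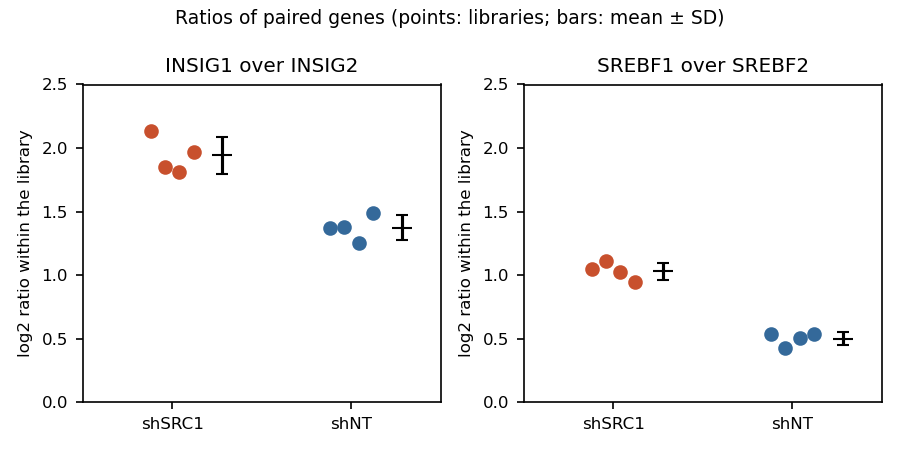
Log2 ratio of INSIG1 to INSIG2 and of SREBF1 to SREBF2 within each library (points), with the mean and SD of 4 libraries, shSRC1 left of shNT. The shSRC1 points lie between 1.81 and 2.14 for the INSIG pair and between 0.95 and 1.11 for the SREBF pair, above all shNT points (1.25 to 1.49 and 0.43 to 0.54).

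Of the genes for uptake, traffic and storage, LRP8 was the only 1 of 3 to pass. STARD4, which carries sterol between membranes, had 1229, 1347, 1427 and 1501 normalized reads in shSRC1 and 1325, 1433, 1522 and 1694 in shNT. SOAT1, which esterifies cholesterol for storage, had 1332, 1617, 1596 and 1745 in shSRC1 and 1693, 1813, 1569 and 1667 in shNT. Both overlapped between groups, with log2 fold changes of -0.12 and -0.11 and limma adjusted p-values of 0.394 and 0.433.

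Levels of different genes were compared as normalized reads per kb of the longest transcript. On that scale the highest members were DHCR7, at 4729 in shSRC1 and 4269 in shNT, and SQLE, at 4062 and 4302. In shSRC1 every library of DHCR7 lay above every library of SQLE, and in shNT the libraries of these genes overlapped. SOAT1 was lowest, at 229 in shSRC1 and 246 in shNT, and CYP51A1 next, at 271 and 298. PMVK ranked 5 in shSRC1 at 2934 and 6 in shNT at 2213, and INSIG1 stood at 1548 and 1143. INSIG2 was lower than INSIG1 in both groups, at 383 and 415. Where the main transcript is not the longest, these levels are too low. Reads of some members can also be lost to or gained from other genes. In GENCODE 29, 83.2% of the exon bases of CYP51A1, 52.3% of ACAT2 and 41.0% of GGPS1 lie under exons of other genes, and the sources used here do not give the counting options. HSD17B7 has a copy, HSD17B7P2, with up to 324 normalized reads in shSRC1 and 249 in shNT, so its values are uncertain too. CYP51A1 also has a copy, CYP51A1P2, with up to 115 in shSRC1 and 47.5 in shNT. PMVK and INSIG1 share no exon bases with another gene, while LRP8 and LSS share 10.3% and 7.88%, all with antisense genes.

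**Figure D5:**
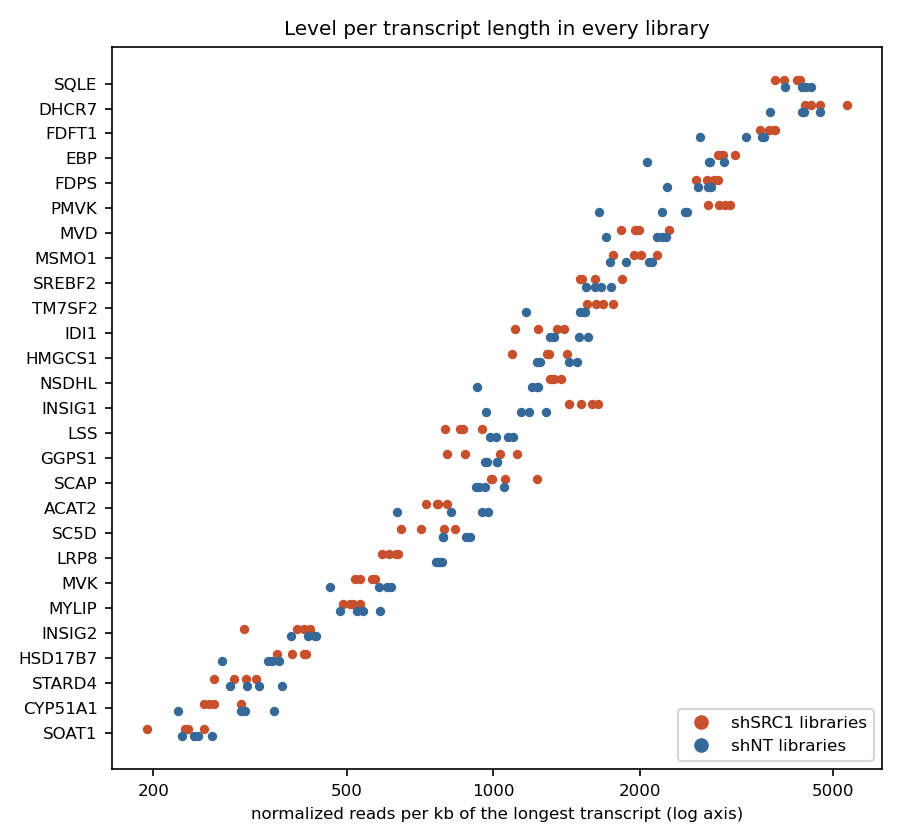
Normalized reads per kb of the longest transcript on a log axis, 1 point a library, with shSRC1 points above shNT points for each gene and genes ordered by their shNT mean. Levels run from about those of SOAT1 (229 in shSRC1, 246 in shNT) to those of SQLE and DHCR7 (4062 and 4729 in shSRC1, 4302 and 4269 in shNT), and the spread within a gene is small beside the spread between genes.

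How the members varied among libraries of 1 group bears on these calls. The median coefficient of variation over the 27 members was 7.24% in shSRC1 and 9.65% in shNT. In shNT replicate 3, 23 of the 27 members had their lowest shNT value. The median member there stood at -0.17 on the log2 scale relative to its mean over all libraries, against 0.0026, 0.084 and 0.073 in shNT replicates 1, 2 and 4. Over all tested genes the median was 0.0019, 0.014 and 0.014 in shNT replicates 1, 2 and 4, and -0.026 in shNT replicate 3. How many of all tested genes were lowest in that library was not counted. Without that library 2 members were higher and 3 lower, and 21.3% of all genes were called. In shSRC1 replicate 1, 12 members had the highest value of their group and 12 the lowest. The 12 highest, among them DHCR7, SCAP, MVD and SREBF2, had a median transcript GC content of 58.3%, and the 12 lowest, among them IDI1, HMGCS1, INSIG2 and STARD4, 40.3%. Across 18787 tested genes, Spearman's rho of a gene's deviation with GC content was 0.48 in that library and ran from -0.22 to 0.19 in the other 7. After a correction of every library for the length and GC content of transcripts, the log2 fold changes were 0.39 for INSIG1, 0.37 for PMVK, -0.37 for LRP8 and -0.28 for LSS, all past the threshold, and HSD17B7 and SCAP passed as well, both higher.

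Some members lie where neighbouring genes had shifted. Around CYP51A1 on chromosome 7, the 50 nearest tested genes had a median log2 fold change of -0.36, and 42.0% of them were called lower. Around IDI1, near the end of chromosome 10, the 30 neighbours counted had a median of -0.27. Around MYLIP on chromosome 6 the median was -0.24, with 28.0% called lower. Around HSD17B7 on chromosome 1 the 50 neighbours had a median of 0.25, beside 0.24 for HSD17B7 itself, and 32.0% were called higher. None of these 4 members passed the test, and the part of the neighbourhood in their values was not tested. For the 4 called genes the neighbours' medians were -0.02 for INSIG1, 0.14 for PMVK, 0.09 for LRP8 and -0.08 for LSS, and for the other 19 they ran from -0.16 to 0.15.

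Other genes of sterol biology were read from the same fit, in 7 lists of 86 genes, of which 81 were tested, 14 rose and 8 fell, or 27.2% called. That share is near the 23.2% of all genes tested, of which 12.0% were higher and 11.2% lower, and the lists below, of 6 to 19 tested genes, are too small to be read against it one by one. Over all genes tested, edgeR called 23.7% and DESeq2 27.1%, and 7352 of 19559 had an unadjusted limma p under 0.05. Of 10 genes of SREBP processing and sterol sensing, 3 rose and none fell in limma, edgeR or DESeq2, or at an unadjusted p under 0.05. RNF145, a ubiquitin ligase of the endoplasmic reticulum linked to sterol sensing, had 5068, 5460, 5412 and 5739 normalized reads in shSRC1 and 3669, 3897, 3125 and 3972 in shNT (a rise of 0.57 on the log2 scale with a limma adjusted p = 4.93e-04). MBTPS1, the protease that makes the first cut in SREBPs, rose by 0.23. None of 8 genes of the liver X receptor and efflux list passed in limma, edgeR or DESeq2, with 1 higher and 1 lower at an unadjusted limma p under 0.05. Among 10 lipoprotein receptor genes other than LRP8, SORL1 fell to 2272 ± 103 in shSRC1, against 3481 ± 346 in shNT (SD, n = 4 each, log2 fold change -0.61, limma adjusted p = 2.08e-04). VLDLR, which like LRP8 binds reelin, rose by 0.48 and LRP12 by 0.35 on the log2 scale, so the receptors that passed went both ways.

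Of 14 tested genes on the isoprenoid branches, 3 rose and none fell in limma. In edgeR, in DESeq2 and at an unadjusted limma p under 0.05, 4 rose and 1 fell, beside the shares over all genes given above. Higher on the log2 scale were the farnesyltransferase subunit FNTB by 0.42, RABGGTA, a subunit of the enzyme that puts geranylgeranyl groups on Rab proteins, by 0.33 and the dolichol kinase DOLK by 0.33. Of 19 tested genes of sterol traffic, VAPA, NPC2 and OSBPL10 rose by 0.33, 0.34 and 0.21, and GRAMD1C and OSBPL8 had log2 fold changes of -0.77 and -0.50. Of 14 fatty acid synthesis genes, SREBF1 and MID1IP1 rose by 0.51 and 0.39, while ACSL3, ELOVL6, FADS2 and ME1 had log2 fold changes of -0.52, -0.33, -0.36 and -0.27. Of 6 tested bile acid and oxysterol enzymes, HSD3B7 rose by 0.33 and EPHX1 had -0.47. OSBPL10, MID1IP1 and ME1 are named beyond the 4 genes a list and were chosen after their values were seen. Over all 7 lists, the 14 rises became 7 without shSRC1 replicate 2, 8 without shSRC1 replicate 1 and 8 without shSRC1 replicate 4. Over all genes, the 2344 rises became 1713, 1688 and 1723 without the same libraries.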

How the data were processed

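RNA of 4 shSRC1 and 4 shNT libraries was measured by poly(A)-selected RNA-seq. The authors deposited 1 signal value for each gene and library, in which the count of reads is scaled by a size factor. The tools named are HTSeq 0.6.1, TopHat2 2.0.12, DESeq and DESeq2, with GRCh37 as build, per the submitters' processing notes. Within 0.001 reads, 100.0% of values were whole multiples of 1 step per library, and reads were recovered from them.

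Values were tested with limma 3.58.1 (R 4.3.3, trend and robust variances) on log2(value + 1), for genes with at least 10 in at least 4 libraries, two-sided, with Benjamini-Hochberg adjustment over 19559 genes and a threshold of 0.05. The scale understates changes of low genes. Scripts were checked on simulated data. Transcript length, GC content, gene order and exon overlaps came from GENCODE 29 by Ensembl identifier (96.1% of tested genes), and promoters from RefSeq on GRCh38.p14, a build other than that of the table. Neighbours are up to 25 tested genes on each side.

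Alternatives were TMM and upper-quartile scaling, other filters (none, 50) and pseudocounts (0.5, 5), edgeR 4.0.16 and DESeq2 1.42.0 on recovered reads (4635 and 5304 genes called), a length and GC correction, a replicate block and libraries left out. All members are named, and from each related list up to 4 genes past the threshold. SREBF1 is named too. Members and lists were chosen with earlier results of these data known. Some genes of the pathway are not reported here.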

Additional observations from a re-analysis of the deposited data

Results flagged for a closer look

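In a group of 4 libraries, a library was singled out by its gap to the nearest other, divided by the range of the 4 values. This ratio had to exceed Dixon's 95% critical value for 4 values, which chance gives in about 1 in 20 groups. Of 54 groups (27 genes in shSRC1 and in shNT), 2 met this. Both were shNT replicate 3, with 2452 normalized reads of TM7SF2 and 1785 of NSDHL, each the lowest of its group. In shSRC1 no gene met it.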

How the results depend on the processing

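The calls of INSIG1 and LRP8 were kept under all 20 alternatives. Of 540 values of single members under alternatives, 7 lost a call, 6 gained one and none that was called changed sign. The count of members higher in shSRC1 was 2, and became 4 with the length and GC correction and 4 with the replicate block (HSD17B7 and NSDHL added), and 1 to 2 when single libraries were left out. The count of members lower was 2, and became 1 with no filter on low values and 1 to 3 when single libraries were left out. Over all genes, 1453 to 2291 were lower with 1 library left out, the 1453 without shSRC1 replicate 2, in place of 2194. Of the related genes, 14 were higher, and 7 to 14 with 1 library left out. Without shSRC1 replicate 2 and shNT replicate 3 together 9 were higher, where 17.7% of all genes were called, 1881 of them higher. Of the related genes 8 were lower, and 15 with the length and GC correction and the replicate block together. In that setting 32.3% of all genes were called, 2892 of them lower.

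The difference in the log2 ratio of INSIG1 to INSIG2 was 0.50 to 0.61 with 1 library left out, and that of SREBF1 to SREBF2 0.51 to 0.56, each with an exact permutation p of 0.0571, the smallest that 3 against 4 allow. With the replicate block the differences were 0.57 and 0.53 (exact sign-flip p = 0.125, the smallest for 4 pairs). The labels do not say whether same-numbered libraries were handled together, and they were not treated as pairs in the main fit. The correlations of their deviations were 0.24, -0.01, 0.13 and 0.14 for replicates 1 to 4. Those of differently numbered libraries ran from -0.21 to 0.13. The block raised the calls over all genes to 6398 in place of 4538, and whether same-numbered libraries share a batch was not tested. Where a call changed, the cause was not tested. The lowest member value was 478 reads, and for LRP8 in shNT the spread of 1.19% is of the size that counting reads alone gives.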
